A study of Homo sapiens with 4 samples.

Results

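Adhesion G protein-coupled receptors (adhesion GPCRs) were followed in Hep-G2, a cell line derived from a human hepatoma, after an shRNA against the RNA demethylase FTO had been introduced. The 9 genes described are ADGRG1, ADGRG2, ADGRG3, ADGRG6, ADGRL1, ADGRL2, ADGRA3, ADGRE5 and ADGRV1, from a set of 32 adhesion GPCR genes analysed here and 62893 genes in the count tables. They were matched by symbol to the Ensembl identifiers of the tables, and all 9 were found. They were chosen by the shFTO over scramble values around ADGRG1, which was higher in shFTO, so the values below describe that comparison and are no independent test of it.

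The control cells, called scramble, carried the shRNA SHC002, and the knockdown cells, called shFTO, carried the shRNA TRCN0000246247. Both were Hep-G2 at passage 21, and each group has 2 deposited tables of read counts, called run 1 and run 2, with totals of 20047409 to 20706611 reads. Each group rests on 1 shRNA, and whether the cells were clones or pools was not stated in the labels. The runs of a group differed by no more than sampling noise, with a chi-square per degree of freedom of 1.019 for scramble and 1.013 for shFTO against 118 to 120 between groups. They were therefore pooled and counted as 1 sample, which leaves a comparison of 1 sample with 1 sample and no replicate check. FTO counts were 594 and 550 in scramble and 116 and 128 in shFTO, 5.32-fold lower (95% counting interval 4.63 to 6.13).

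Adhesion GPCRs have a long extracellular part that binds matrix or proteins on other cells, joined to the usual bundle of membrane-spanning helices. In most of them a GAIN domain cuts the protein just outside the membrane, and the short stretch uncovered at the cut acts as a built-in agonist when the outer fragment is pulled away. Signals pass through G proteins, for ADGRG1 mainly to RhoA and for ADGRG6 to cyclic AMP.

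Of the 9 genes, 8 had enough reads to test. In shFTO, 1 of the 8 lay at or above a 2-fold increase, where 5.18% of all 13767 tested genes did. A further 3 of the 8 lay at or below a 2-fold decrease, where 6.19% of all tested genes did, so that 4 of the 8 changed at least 2-fold where 11.4% of all tested genes did. ADGRG1 was 11.2-fold higher, whereas ADGRL2 was 12.6-fold, ADGRG3 7.87-fold and ADGRG6 3.66-fold lower. ADGRA3, ADGRL1, ADGRE5 and ADGRV1 differed by less than 1.5-fold, and ADGRG2 had too few reads. The median log2 ratio of the 8 was -0.13, beside 0.01 over all tested genes, and it was 0.04 under scaling by plain library size, which moved the median of all tested genes to 0.18. With plain library size 941 of all tested genes were at least 2-fold higher and 659 lower, against 713 and 852 with the scaling used here. By edgeR's quasi-likelihood test 3 of the 8 passed as higher and 3 as lower, where 66.6% of all tested genes passed either way. That test draws its spread from runs that match within sampling noise, so its calls tell libraries apart, not conditions.

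**Figure D1:**
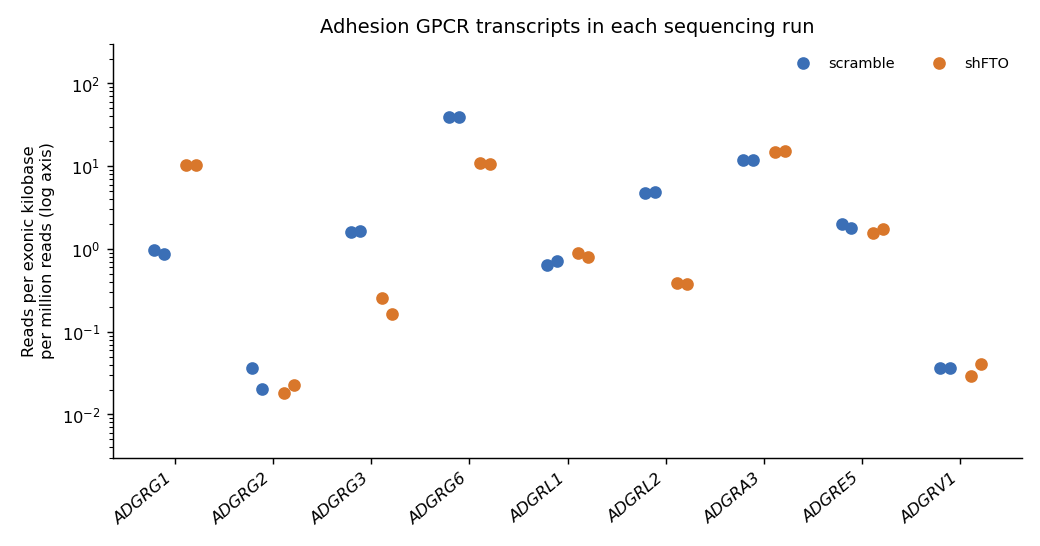
Level of each of the 9 receptor genes in the 4 runs, in RPKM on a log axis (CPM, reads per 1000000 scaled reads, divided by the kilobases of annotated exon). Each point is 1 run, blue for scramble and orange for shFTO. The runs of ADGRG1 sit near 0.92 in scramble and 10.3 in shFTO and those of ADGRL2 near 4.83 and 0.384.

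ADGRG1 (ENSG00000205336), also known as GPR56, is a receptor for collagen III and transglutaminase 2 that is best known from the developing brain cortex and from cytotoxic lymphocytes. Scramble run 1 and run 2 gave 160 and 145 reads, and shFTO run 1 and run 2 gave 1894 and 1984. In CPM these are 8.47, 7.51, 88.5 and 90.4. Both shFTO runs lay far above both scramble runs, and runs of a group were close to each other. The ratio was 11.2 (counting interval 9.97 to 12.6), a log2 ratio of 3.49. Among all tested genes 59 ranked above it, as it stood 60th in order of the log2 ratio. The intervals here and below are exact Clopper-Pearson intervals on the pooled reads, which cover counting error only.

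The rule for a like pattern looked for protein-coding genes with a mean CPM within 2-fold of that of ADGRG1 and the smallest difference in log2 ratio, over the 2 groups. Among 4316 such genes none lay closer than 0.78 log2 units. The nearest were BEX1 (6.51-fold higher, interval 5.79 to 7.34), ANK2 (4.88, 4.36 to 5.47), NUPR1 (4.38, 4.06 to 4.74), NPNT (31.4, 24.5 to 41.0) and GSTA1 (3.89, 3.64 to 4.16). With only 2 groups, the likeness is that of a single difference.

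Of the 9 genes, 6 have promoter windows in the RefSeq table used here (GRCh38.p14), each of 300 bases around a transcription start. ADGRG1 has 3 such windows. ADGRG1 was taken as the gene with the highest ratio of the 9. Its windows 1 and 3 are printed and window 2 is not, and capitals mark the motifs searched. Both strands were searched for 6 motifs, none of which contains another. They were the TATA box with the letters TATAAA, the CCAAT box, the GC box with the letters GGGCGG, the core of the hypoxia response element with the letters ACGTG, the site of TEAD factors with the letters GGAATG, and the site of AP-1 with the letters TGACTCA.
ADGRG1 window 1, chr16:57619488-57619787, plus strand: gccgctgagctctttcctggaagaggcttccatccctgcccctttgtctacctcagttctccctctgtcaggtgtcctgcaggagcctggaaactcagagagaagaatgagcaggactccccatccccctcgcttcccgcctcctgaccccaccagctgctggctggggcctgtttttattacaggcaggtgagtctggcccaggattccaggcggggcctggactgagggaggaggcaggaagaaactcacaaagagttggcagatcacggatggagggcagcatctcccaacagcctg
ADGRG1 window 3, chr16:57628380-57628679, plus strand: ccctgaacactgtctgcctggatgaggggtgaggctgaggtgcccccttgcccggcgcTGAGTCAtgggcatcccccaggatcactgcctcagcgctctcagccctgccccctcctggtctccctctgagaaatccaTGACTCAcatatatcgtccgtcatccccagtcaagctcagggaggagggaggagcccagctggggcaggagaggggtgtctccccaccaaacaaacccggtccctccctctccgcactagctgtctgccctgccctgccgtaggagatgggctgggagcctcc
Window 3 holds 2 matches to the AP-1 letters, the recognition sequence of the Fos and Jun proteins. Of all 35116 windows of that length 4.9% hold at least 1 match and 0.22% at least 2. As 15 windows of the 6 genes were searched for 6 motifs, 0.22% is not the rarity of a single planned search. Windows 1 and 2 of ADGRG1 hold none of the 6 motifs. The 3 windows have 59.7%, 66.0% and 64.3% G and C, against a median of 58.7% over all windows, and 5, 6 and 8 CpG dinucleotides, against a median of 14. These matches describe the letters of the reference and are no evidence of binding. The read counts are per gene and do not say which start was used.

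ADGRG3 (ENSG00000182885), or GPR97, is best known from granulocytes. It lies beside ADGRG1 on chromosome 16, on the same strand, and went the other way, at 101 and 107 reads in scramble and 18 and 12 in shFTO, or 5.35, 5.54, 0.841 and 0.547 CPM. Both shFTO runs lay below both scramble runs. This is 7.87-fold lower (5.35 to 12.0) and a log2 ratio of -2.98. An unnamed antisense gene shares 107 exonic bases with ADGRG3 and had 3 reads in scramble and 6 in shFTO.

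**Figure D2:**
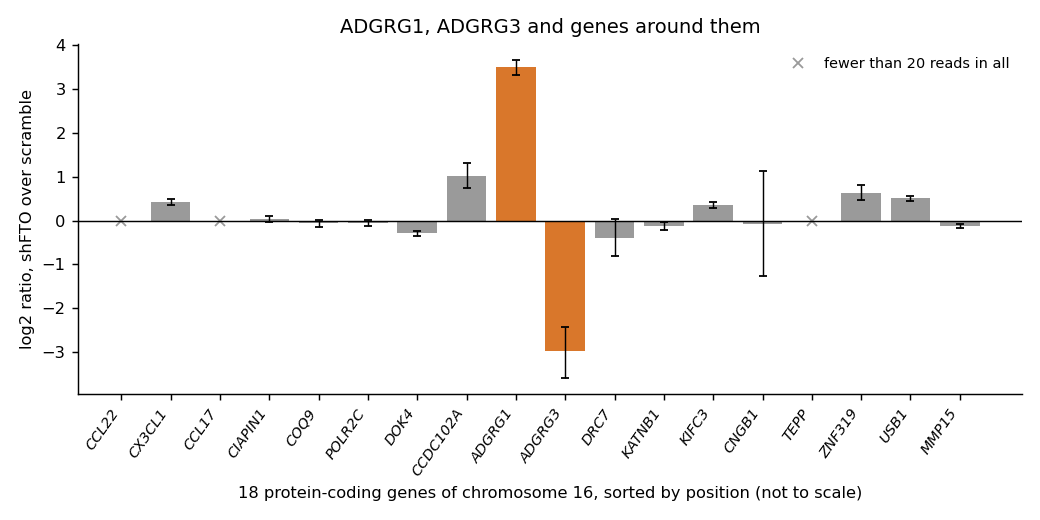
Log2 ratio of shFTO over scramble for 18 protein-coding genes taken from chromosome 16 and sorted by position, with bars for the pooled ratio and whiskers for the 95% counting interval. ADGRG1 (3.49) stands beside ADGRG3 (-2.98), while the other tested genes lie between -0.39 and 1.01.

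Of 16 protein-coding genes taken from the stretch around them, 12 were tested. The median log2 ratio of the 12 was -0.01, or 0.16 with plain library size. Over all tested genes 5.18% were at least 2-fold higher and 6.19% lower, and of the 12, 1 was higher and 0 lower. That 1 was CCDC102A, on the ADGRG1 side, at 76 and 75 reads in scramble and 161 and 185 in shFTO. Its ratio of 2.02 (1.66 to 2.46) lies at the 2-fold line, and without scramble run 2 or shFTO run 2 none of the 16 passed that line. DRC7, on the ADGRG3 side, is named for its place, after its values were seen, and was 1.31-fold lower (0.979 to 1.76). MMP15, a membrane-bound matrix protease, and USB1, an RNA-processing enzyme, had the highest mean CPM of the 16 and had ratios of 0.913 (0.884 to 0.943) and 1.42 (1.37 to 1.47). DOK4, a docking protein gene and next in mean CPM, was 1.23-fold lower (1.17 to 1.28). By edgeR's quasi-likelihood test, adjusted over all tested genes, 5 of the 12 passed as higher and 3 as lower, where 66.6% of all tested genes passed either way.

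ADGRG6 (ENSG00000112414), or GPR126, binds collagen IV, laminin-211 and the prion protein, and is known for the role it has in Schwann cells at the start of myelination. It was the most abundant of the 9 in scramble, with 6313 and 6514 reads, and had 1969 and 2003 in shFTO. In CPM these are 334, 337, 92.0 and 91.3. The shFTO runs lay well below the scramble runs. This is 3.66-fold lower (3.53 to 3.80). The log2 ratio was -1.87, and -1.71 with plain library size.

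ADGRG2 (ENSG00000173698), or GPR64, is known from the epididymis. It had 7 and 4 reads in scramble and 4 and 5 in shFTO, too few to test, and the ranges overlap. A difference was not detectable at this depth, as the interval of the ratio ran from 0.264 to 1.91.

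The latrophilins ADGRL1 and ADGRL2 bind teneurins and FLRT proteins on neighbouring cells and are best known from synapses. ADGRL2 (ENSG00000117114) gave 697 and 734 reads in scramble and 64 and 65 in shFTO, or 36.9, 38.0, 2.99 and 2.96 CPM. The shFTO runs lay far below the scramble runs, at 12.6-fold lower (10.5 to 15.2) and a log2 ratio of -3.65. Only 53 of the 13767 tested genes had a lower log2 ratio, which puts ADGRL2 at 54th from the bottom.

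ADGRL1 (ENSG00000072071) had 104 and 118 reads in scramble and 161 and 148 in shFTO, or 5.51, 6.11, 7.52 and 6.75 CPM. The shFTO runs lay just above the scramble runs, and the ratio was 1.23 (1.03 to 1.46). An antisense gene, ADGRL1-AS1, shares 473 exonic bases with ADGRL1 and had 29 reads in each group.

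The promoter windows of ADGRG6 and ADGRL2 are printed because these are the lowered genes with the most reads. Capitals mark a motif of the set above.
ADGRG6, chr6:142301757-142302056, plus strand: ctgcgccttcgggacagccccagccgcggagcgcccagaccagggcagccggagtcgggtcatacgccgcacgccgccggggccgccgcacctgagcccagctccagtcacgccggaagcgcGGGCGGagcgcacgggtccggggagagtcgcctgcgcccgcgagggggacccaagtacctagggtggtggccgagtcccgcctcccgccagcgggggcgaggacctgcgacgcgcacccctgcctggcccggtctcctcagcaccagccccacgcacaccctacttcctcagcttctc
ADGRL2 first window, chr1:81800126-81800425, plus strand: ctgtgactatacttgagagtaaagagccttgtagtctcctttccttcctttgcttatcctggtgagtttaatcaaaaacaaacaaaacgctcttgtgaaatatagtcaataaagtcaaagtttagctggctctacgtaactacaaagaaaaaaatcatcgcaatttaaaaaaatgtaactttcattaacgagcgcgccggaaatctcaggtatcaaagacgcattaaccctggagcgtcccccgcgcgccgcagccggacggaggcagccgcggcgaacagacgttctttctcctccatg
The ADGRG6 window has 75.3% G and C and 36 CpG dinucleotides, and holds 1 GC box, as 45.0% of all windows hold at least 1. ADGRL2 has 8 windows in the table, numbered in its order and not by position. The windows at chr1:81305882-81306181 and chr1:81699358-81699657 lie upstream of the first. The first, with 44.7% G and C and 19 CpG, holds none of the 6 motifs. Of the other 7, 5 hold at least 1 match. The single window of ADGRA3, with 78.3% G and C and 40 CpG, holds 3 GC boxes. No window of ADGRG6, ADGRL2 or ADGRA3 holds the AP-1 letters.

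ADGRA3 (ENSG00000152990), or GPR125, has been linked to planar cell polarity through Dishevelled. It had 2055 and 2137 reads in scramble and 2960 and 3139 in shFTO, or 109, 111, 138 and 143 CPM. Both shFTO runs were above both scramble runs, and the ratio was 1.28 (1.23 to 1.33), or 1.44 with plain library size. ADGRE5 (ENSG00000123146), the CD97 antigen, binds CD55 and is known from leukocytes and carcinoma cells. It had 204 and 184 reads in scramble and 181 and 205 in shFTO. These overlap, and the ratio of 0.877 had an interval from 0.760 to 1.01. ADGRV1 (ENSG00000164199), the giant receptor of the Usher syndrome complex in hair cells, had 23, 24, 21 and 30 reads in the same order, with a ratio of 0.957 (0.631 to 1.45). Its exons share 68 bases with LYSMD3 on the opposite strand, which had 1478 and 1298 reads in the 2 groups.

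Per kilobase of annotated exon, the order of the 9 genes was not the same in the 2 groups. In scramble ADGRG6 led with 39.6 RPKM (Poisson interval 38.9 to 40.3), ahead of ADGRA3 with 11.9 (11.5 to 12.2) and ADGRL2 with 4.83 (4.58 to 5.09). ADGRE5 with 1.89 and ADGRG3 with 1.64 followed, with overlapping intervals, then ADGRG1 with 0.922 (0.822 to 1.03) and ADGRL1 with 0.685. ADGRV1 with 0.0364 and ADGRG2 with 0.0284 came last, with overlapping intervals.

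In shFTO ADGRA3 led with 15.2 (14.8 to 15.6). ADGRG6 with 10.8 (10.5 to 11.2) and ADGRG1 with 10.3 (10.01 to 10.7) came next with overlapping intervals, so that ADGRG1 moved from rank 6 to rank 3. ADGRE5 followed with 1.66, then ADGRL1 with 0.840, ADGRL2 with 0.384 and ADGRG3 with 0.208, none of these overlapping the next. ADGRV1 and ADGRG2 came last and overlapped each other.

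The reads of these 32 adhesion GPCR genes were fewer in shFTO. They summed to 593 and 603 CPM in the scramble runs and 430 and 436 CPM in the shFTO runs, which is 1.38-fold lower (1.36 to 1.41). The log2 ratio was -0.47, and -0.30 with plain library size. ADGRG6 held 56.1% of these reads in scramble (exact binomial interval 55.5% to 56.8%) and 21.2% in shFTO (20.6% to 21.8%). The share of ADGRG1 went from 1.33% (1.19% to 1.49%) to 20.7% (20.1% to 21.3%), and that of ADGRA3 from 18.3% to 32.5%. ADGRL2 held 6.26% in scramble and 0.688% in shFTO. Without ADGRG1 the other 8 of the 9 genes together had a ratio of 0.501 (0.489 to 0.513). ADGRG6 held 12827 of the 19326 reads of these 8 in scramble and 3972 of 10985 in shFTO. The sum thus follows mainly ADGRG6 and does not describe each of the 8, as ADGRA3 was 1.28-fold higher.

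**Figure D3:**
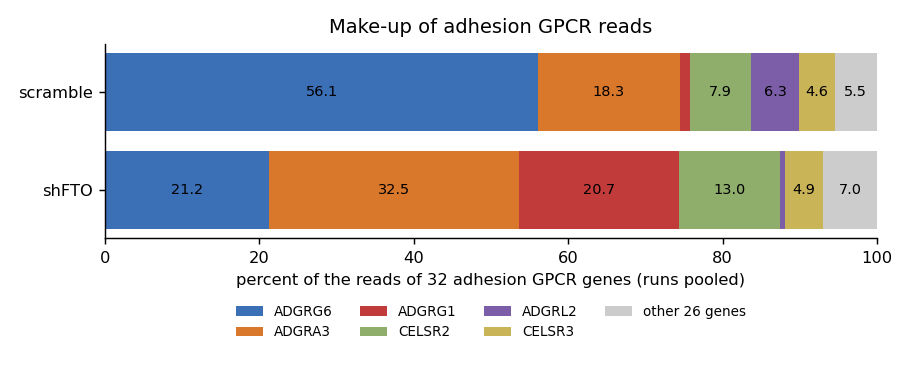
Share of the reads of 32 adhesion GPCR genes taken by 6 genes and by the other 26 together, in percent, with the runs of a group pooled. The 6 are those with the largest shares by the higher of a gene's values in the 2 groups, not within each bar. In scramble ADGRG6 takes 56.1%, and in shFTO ADGRA3 (32.5%), ADGRG6 (21.2%) and ADGRG1 (20.7%) take the largest shares.

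Of 23 other adhesion GPCR genes 18 had any read and 5 were tested. Of the 5, 1 was at least 2-fold higher and 1 lower, where 5.18% and 6.19% of all tested genes were. Their median log2 ratio was -0.36. CELSR1, a planar polarity cadherin with a receptor domain, had 61 and 60 reads in scramble and 199 and 206 in shFTO, 2.95-fold higher (2.40 to 3.65). ADGRD1, or GPR133, had 87 and 80 reads in scramble and 11 and 8 in shFTO, 9.97-fold lower (6.19 to 17.0). The paralogs CELSR2 and CELSR3, the most abundant of the 23, were 1.20-fold higher (1.13 to 1.27) and 1.29-fold lower (1.18 to 1.41). Together the 23 genes summed to 81.8 and 86.9 CPM in scramble and 89.8 and 90.1 CPM in shFTO.

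**Figure D4:**
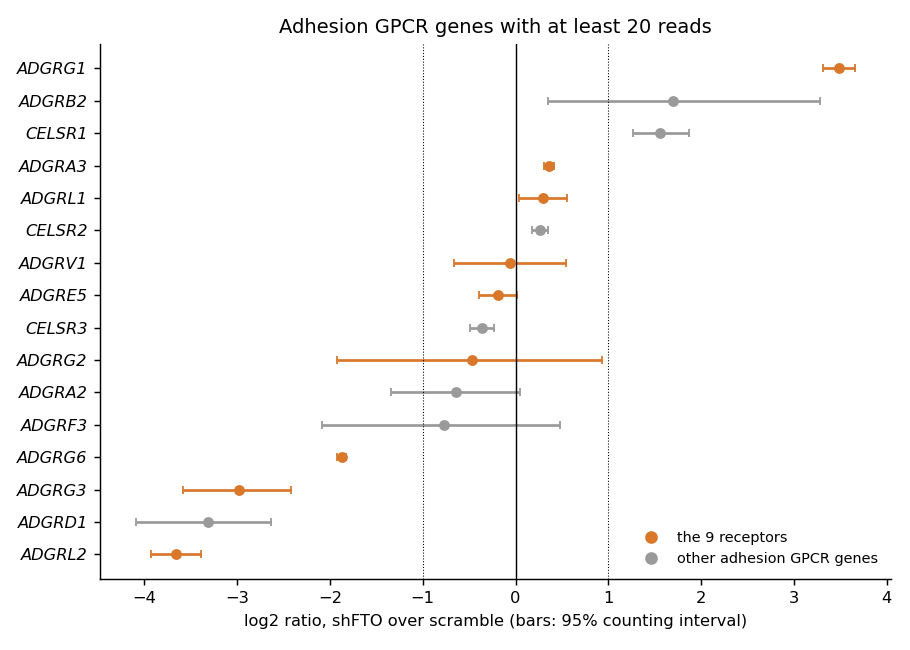
Log2 ratio of shFTO over scramble for adhesion GPCR genes with at least 20 reads, with 95% counting intervals and dotted lines at 2-fold. Orange marks the 9 receptors and grey the other adhesion GPCR genes analysed. ADGRG1 (3.49) lies at the top, and ADGRL2 (-3.65), ADGRD1 (-3.32) and ADGRG3 (-2.98) at the bottom.

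Genes for known ligands, partners and processing enzymes of these receptors were taken from a list of 29, of which 16 were tested. Of the 16, 5 were at least 2-fold higher and 2 lower, where 5.18% and 6.19% of all tested genes were. Their median log2 ratio was 0.04. By edgeR's quasi-likelihood test, adjusted over all tested genes, 7 passed as higher and 3 as lower. Of all tested genes 66.6% passed either way. For the latrophilins, FLRT2 had 72 and 68 reads in scramble and 687 and 669 in shFTO, 8.54-fold higher (7.17 to 10.2). UNC5B, a netrin receptor that also binds FLRT proteins, had 6 and 3 reads against 769 and 730, a ratio of 147 (77.1 to 322). FLRT3, a paralog of FLRT2, had 26 and 37 reads against 34 and 33, which overlap, and a ratio of 0.938 (0.655 to 1.34). No teneurin gene had enough reads to test.

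Of the ADGRG1 partners, the ligand gene COL3A1 had no read in any run, and the gene of the other ligand, TGM2, had a ratio of 0.937 (0.868 to 1.01). The tetraspanin CD9, a membrane organiser, was 2.54-fold lower (2.30 to 2.81), with 618 and 628 reads in scramble and 268 and 288 in shFTO. Its relative CD81, which binds ADGRG1, had no read in scramble and 9 in shFTO. CD55, the ligand of ADGRE5 and a complement inhibitor, had 455 and 449 reads against 223 and 214, 2.35-fold lower (2.09 to 2.64).

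Among the integrins, ITGA5 was 3.56-fold higher (2.30 to 5.70) and ITGB3 had 1 read in scramble and 44 in shFTO, a ratio of 38.8 with a wide interval of 6.61 to 1566. The abundant ITGB1 and ITGAV had ratios of 1.03 (1.02 to 1.05) and 1.02 (0.990 to 1.05). The protease gene FURIN, whose product cuts many receptors on their way to the surface, was 2.52-fold higher (2.42 to 2.61), and the prion protein gene PRNP, for a ligand of ADGRG6, had a ratio of 1.02 (0.990 to 1.05).

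Of 31 genes for signal transducers downstream of the receptors 30 were tested, 0 at least 2-fold lower and 2 higher, both of them adenylate cyclases, the enzymes that make cyclic AMP. The median log2 ratio was 0.07, and edgeR's quasi-likelihood test passed 14 as higher and 9 as lower. Of all tested genes 6.19% were at least 2-fold lower and 5.18% higher, and 66.6% passed edgeR's test either way. ADCY3 had 14 and 22 reads in scramble and 66 and 67 in shFTO, 3.26-fold higher (2.24 to 4.85), and ADCY7 had 121 and 141 against 309 and 324, 2.13-fold higher (1.84 to 2.47). Without scramble run 1 only 1 of the 31 passed 2-fold. Among the most abundant transcripts of the list, GNAS, for the stimulatory G protein subunit, was 1.01-fold lower (0.9996 to 1.02) and RHOA 1.02-fold lower (1.01 to 1.04). GNAI2, for an inhibitory G protein subunit, was 1.47-fold higher (1.43 to 1.51).

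The tables were checked for the labelled cell type and for others in which these receptors are best known. All 7 hepatoma markers (ALB, AFP, APOA1, APOB, TTR, SERPINA1 and TF) were expressed in every run. But their summed level was 35106 to 35130 CPM in scramble and 15118 to 15193 CPM in shFTO. At least 2-fold lower were 5 of the 7, where 6.19% of all tested genes were. Of 12 leukocyte markers PTPRC, CD3E, CD2, MS4A1 and FCGR3B had no read in any run and 8 were under 1 CPM in both groups. Their summed level of 3022 to 3027 CPM in scramble and 241 to 242 CPM in shFTO came almost wholly from lysozyme, LYZ, at 3005 and 232 CPM. PTPRC, the pan-leukocyte marker, was thus at 0 while ADGRG3 and ADGRE5 had reads. Endothelial markers summed to 1.06 to 1.35 CPM in scramble and 2.14 to 2.20 CPM in shFTO, with PECAM1, KDR and CLEC14A at 0. TIE1, the 1 tested gene of these, was 2.41-fold higher (1.57 to 3.79), from 30 to 82 reads. Fibroblast and stellate markers summed to 55.01 to 56.8 CPM and 39.7 to 43.8 CPM, with DCN and LUM at 0. Within that list COL1A1 was 23.8-fold higher (9.95 to 74.5), from 5 to 135 reads, and PDGFRB 6.42-fold lower (5.42 to 7.66), from 889 to 157. Schwann and neural markers summed to 39.3 to 45.3 CPM and 23.5 to 25.6 CPM, with S100B at 0. The part of these differences in the receptor values was not tested. In bulk RNA, fewer cells that express a gene and less RNA per cell cannot be told apart.

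FTO removes methyl groups from N6-methyladenosine, which in mRNA is often placed within the letters GGACT. These letters were counted in the longest protein-coding transcript of each gene in GENCODE v29, as a property of the sequence and not of methylation. ADGRG1 holds 9 in 4254 bases, or 2.12 per kilobase, which puts it at the 93.0 percentile of 11978 tested genes, whose median is 0.935. ADGRG6 holds 0.285 per kilobase, ADGRG3 0.733 and ADGRL2 1.43, at the 10.3, 36.1 and 76.4 percentiles. ADGRA3 holds 1.31 and ADGRE5 1.88 per kilobase, at the 71.4 and 89.3 percentiles. For ADGRL1 the value is 1.273, for ADGRV1 1.125 and for ADGRG2 0.625. Any link of these letters to the read counts was not tested.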

How the data were processed

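Total RNA of Hep-G2 cells was extracted in Trizol, DNase treated and column purified, per the labels' protocols. The authors deposited whole-number read counts by Ensembl gene, not normalized, for 2 runs a group at passage 21. The aligner TopHat2 2.1.1, the counter HTSeq 0.6.0 and build hg19 are named in the submitters' processing notes. No strand setting or annotation release is stated there. Without strand, reads of overlapping genes cannot be told apart.

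Symbols were matched for 51537 of 62893 identifiers, and all 147 list genes were matched. Gene order, types and exonic lengths came from GENCODE v29 (GRCh38), another build than the counts, so no gene coordinates are given; promoter windows are RefSeq's on GRCh38.p14.

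Genes were filtered with filterByExpr (minimum count 10) and scaled with edgeR's TMM factors. Ratios are of pooled CPM, with exact 95% Clopper-Pearson intervals. Called means at least 2-fold. edgeR 4.0.16 (R 4.3.3) gave quasi-likelihood calls, two-sided, Benjamini-Hochberg adjusted p under 0.05; since runs match within sampling noise, no p of a gene is given. The test was checked on simulated data with planted changes. With no spread beyond sampling noise (dispersion 0) it found 61.7% of 1.25-fold and 89.8% of 2-fold changes. The counting intervals then covered 95.7% to 98% of planted folds. With added spread (dispersion 0.01) it found 6.4% and 82%, and the intervals covered 60% to 70.2%. Alternatives were other scalings and filters, DESeq2 1.42.0, the replicate number as a block and leaving out each run.

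The members and lists were chosen with earlier results of these data known. Some genes of the family and the lists are not reported here, and counts, sums and gene order are without them. Named were the 9 receptors, up to 5 genes each way at least 2-fold changed and the 3 with the highest mean CPM of each list other than the markers, the 5 genes most like ADGRG1, and FTO. COL3A1, TGM2, CD81, FLRT3, DRC7 and the markers were named outside that rule, after their values were seen.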

Additional observations from a re-analysis of the deposited data

How the results depend on the processing

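The directions of the 4 receptors changed at least 2-fold held under every scaling, filter and left-out run tried. ADGRG1 ranged from 11.2-fold to 12.6-fold higher over the scalings. ADGRV1, near 0, changed sign with plain library size (log2 ratio 0.10) and without shFTO run 1 (0.15). With no low count filter 1943 of all genes were at least 2-fold higher and 2180 lower, and 6 of the other adhesion GPCR genes and 3 of the genes around ADGRG1 were changed at least 2-fold, as genes with few reads entered. Leaving out each run gave 1 to 2 signal transducers changed and 0 to 1 of the genes around ADGRG1. The median log2 ratio of the tested receptors ranged from -0.30 to 0.02 and that of the other adhesion GPCR genes from -0.34 to 0.01 over left-out runs. edgeR calls among the 9 ranged from 5 to 7 over those runs. DESeq2 called 5 of them and 6880 genes, where edgeR called 6 and 9170.

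The deviations of same-numbered runs from their group means did not correlate (0.004 over 13767 genes). As these deviations are no larger than sampling noise, that cannot show whether same-numbered runs were paired. With the replicate block edgeR called 9216 genes and 6 of the 9. Depth limits ADGRG2 and ADGRV1, and culture-to-culture variation was not measured.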
